A study of Rattus norvegicus with 72 samples.

Results

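Of 145 genes measured by microfluidic quantitative RT-PCR in rat brain, 8 were assays of protein kinase C (PKC) and related kinase genes. They were chosen by name, as every identifier equal to PKCe or beginning with Prkc, Prka or Camk. The 7 described here are Prkca, Prkcb1, PKCe, Prkce, Prkch, Prkci and Prkcm. No identifier began with Prka (0 of 145) or Camk (0 of 145), so kinases of the PKA and CaM kinase families were not analysed here. The tissue was bilateral micropunches of the dorsal vagal complex (DVC), the brainstem centre that receives vagal input from the viscera, and of the central nucleus of the amygdala (CeA), a forebrain output nucleus for emotional and autonomic responses.

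The animals were 40 young male Sprague Dawley rats, all alcohol-naive and all kept calorie-restricted on an alcohol-free Lieber DeCarli liquid diet, with intake matched to that of alcohol-fed rats. They were killed in the light phase at ZT3, ZT5 or ZT9, where ZT is Zeitgeber time in hours and lights came on at ZT0. By time point, the DVC samples numbered 7, 17 and 15 (ZT3, ZT5, ZT9), and those of the CeA 7, 14 and 12. Each sample came from 1 animal without pooling, and 32 animals gave both regions. Rats fed ad libitum and the dark phase were not analysed here, and every value below describes calorie-restricted rats in the light phase.

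PKC enzymes are serine/threonine kinases that act after receptors coupled to Gq proteins. Phospholipase C splits a membrane lipid into diacylglycerol, which binds PKC, and IP3, which opens calcium stores. Conventional isoforms need calcium and diacylglycerol, the epsilon and eta isoforms need diacylglycerol but not calcium, and atypical isoforms need neither. In neurons PKC phosphorylates receptors, channels and release proteins, and PKC epsilon in the amygdala has been studied for its part in GABA release and in responses to alcohol.

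The panel held 2 assays with epsilon in their names. The deposited table pairs PKCe with rat gene 29340, which is Prkce (PKC epsilon) in the RefSeq gene table of the GRCr8 assembly. The gene number listed for the assay named Prkce is not that of Prkce in the same RefSeq table, so its name and its number do not point to the same gene. Which transcript it amplifies was not tested, and the assay is called Prkce below only as its label. The primers of PKCe, the epsilon assay whose name and number match, are shown because this assay carries the time point result (5′ to 3′, in lower case with no part marked):
PKCe forward: agccgtcacttcgaggact
PKCe reverse: cgatgatcacgtagacttttcct
The other gene numbers matched RefSeq genes of the same kinase: 24680 for Prkca (PKC alpha), 25023 for Prkcb1 (now Prkcb, PKC beta), 81749 for Prkch (PKC eta), 84006 for Prkci (PKC iota) and 85421 for Prkcm (now Prkd1, protein kinase D1).

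All values are threshold cycles (CT) on a log2 scale, in which a lower CT is more template and 1 cycle is a doubling where amplification is complete. Normalized CT values are the quantile-normalized values of the deposited table. Differences below are given as expression, so that a positive value is more template. CT values of different assays cannot be set against each other as abundance, because primers and amplification efficiency differ. All 7 assays gave a value in all 39 DVC samples, and in the CeA they gave 33 values each, except Prkca and Prkce with 31.

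The samples bore out the DVC label by Slc6a2, the noradrenaline transporter, which was measured in 38 of 39 DVC samples and in 1 of 33 CeA samples. Rgs9, fixed as a marker of striatal-type forebrain neurons, went the other way and was higher in the DVC by 0.80 ± 0.12 (SE). The GABAergic markers Gad1 (-0.19, adjusted p 0.106) and Slc32a1 (-0.27, adjusted p 0.0431) differed little. The astrocyte marker Clu differed by -0.59 ± 0.15 (SE, DVC minus CeA) over all time points. By time point Clu stood at -1.20 at ZT5 (adjusted p 2.04e-06), -0.10 at ZT3 (adjusted p 0.82) and -0.14 at ZT9 (adjusted p 0.65). These 3 values are given on the scale normalized over both regions together only. On it the 7 DVC samples at ZT3 had nearly the same Clu value (SD 0.014), against an SD of 0.82 at ZT5. The part of the normalization in this was not tested. The signs of Gad1, Slc32a1 and Clu rested on the scale. With each region normalized alone, the limma differences were 0.90 for Gad1 (adjusted p 1.58e-11), 0.26 for Slc32a1 (adjusted p 0.0424) and 0.89 for Clu (adjusted p 7.21e-08). With each sample centred on its median, Clu stood at -0.09 (adjusted p 0.31). The whole set marks the DVC by Slc6a2 and holds no marker of its own for the CeA. The missing values split the panel into 2 sets of assays: in 2 CeA samples (ZT5 replicate 1 and ZT9 replicate 10), 78 and 74 reactions failed, and nearly all were of 1 set, against 0 to 9 failed reactions in every other sample. Prkca and Prkce lay in the set of 72 genes that failed there, and the other 5 kinase assays lay in the set of 73. The median normalized CT of the first set minus that of the second ranged from -1.18 to 1.64 in the DVC and from -1.46 to -0.30 in the CeA, so values of the sets shifted against each other between samples and between regions. In tissue punches, fewer cells of a type and less RNA per cell cannot be told apart.

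Brain region was called for most of the kinase assays, and time point for 1 of them. Of the 7 assays, 6 differed between the DVC and the CeA at an adjusted p of at most 0.05 in the limma fit with time point as a covariate, where 71.8% of all genes tested did (those of the panel with at least 2 values in every group). Higher expression in the CeA was called for 4 of them (Prkce, PKCe, Prkch and Prkcb1), against 29.6% of all genes, and for all 4 this direction turned when each region was normalized alone. Higher expression in the DVC was called for 2 (Prkci and Prkca), against 42.3% of all genes. The median region difference of the 7 assays (DVC minus CeA) was -0.46, and that of all genes tested was 0.08.

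Of the calcium-dependent isoforms, Prkca, the alpha isoform, was higher in the DVC. Its normalized CT was 20.21, 21.30 and 23.41 (lowest, median, highest) in the DVC, against 20.63, 22.04 and 23.37 in 31 CeA samples. The ranges overlapped almost fully, and 23 of 30 animals had more Prkca in the DVC. The difference was 0.58 ± 0.15 (SE), with a 95% interval of 0.28 to 0.88 and an adjusted p of 0.000455 in the limma fit.

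Prkcb1, the beta isoform, had a lowest, median and highest CT of 16.36, 16.90 and 17.75 in the DVC, against 15.21, 16.58 and 17.65 in the CeA. All but 2 DVC samples lay inside the CeA range, so that 37 of 39 overlapped, and 29 of 32 animals had more Prkcb1 in the CeA. The difference of -0.46 ± 0.09 (SE) passed the test (adjusted p 1.05e-05, limma). The animals were split by the number in their labels into a lower-numbered and a higher-numbered group. The cut was set from the time points, just below the lowest-numbered ZT3 animals, and not at a break in the numbers. All ZT3 samples are therefore of higher-numbered animals (0 of 7 lower-numbered in each region). Lower-numbered animals gave 6 of 17 ZT5 and 10 of 15 ZT9 samples in the DVC, and 5 of 14 and 7 of 12 in the CeA. The groups thus differ in their mix of time points. Among lower-numbered animals the Prkcb1 difference was -0.83, and among higher-numbered animals it was -0.24, and these were not tested against each other.

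The epsilon-named assays and the eta assay were higher in the CeA on the scale shared by both regions, and their sign turned with each region normalized alone. PKCe, the epsilon assay with matching gene number, had normalized CT values from 18.29 to 19.57 across the DVC samples and from 17.20 to 18.99 across those of the CeA. In 30 of 32 animals it was higher in the CeA, by -0.83 ± 0.09 (SE) in the fit, or 1.77-fold (adjusted p 5.26e-14). For the assay labelled Prkce the lowest, median and highest CT were 17.48, 18.14 and 18.98 in the DVC, against 16.54, 17.06 and 18.16 in the CeA. It was higher in the CeA in all 30 animals with both values, by -1.07 ± 0.10 (SE), or 2.10-fold (95% interval 1.84 to 2.39, adjusted p 1.43e-16). For Prkch, the eta isoform, they were 19.25, 21.99 and 22.80 in the DVC, against 20.16, 21.04 and 22.27 in the CeA. It was higher in the CeA in 29 of 32 animals, and the difference was -0.75 ± 0.13 (SE, adjusted p 7.06e-07).

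Prkci, the atypical iota isoform known for its part in cell polarity, was higher in the DVC. Its lowest, median and highest CT were 17.23, 18.62 and 19.63 in the DVC, against 18.59, 19.12 and 20.47 in the CeA. The DVC value was the higher one in 28 of 32 animals, and the difference was 0.62 ± 0.11 (SE, adjusted p 3.28e-07, limma). Prkcm, which encodes protein kinase D1, a diacylglycerol-binding kinase that PKC activates, was the 1 assay with no call. Its values ran from 21.40 to 25.78 in the DVC and from 21.88 to 25.75 in the CeA, with 13 animals having the higher DVC value and 19 the higher CeA value. The difference was -0.06 with a 95% interval of -0.44 to 0.31 and an adjusted p of 0.76. Its direction rested on the scale: it was called lower in the DVC with each sample centred on its median (-0.60, adjusted p 0.0036), and higher in the DVC with each region normalized alone (0.60, adjusted p 0.00238).

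**Figure D1:**
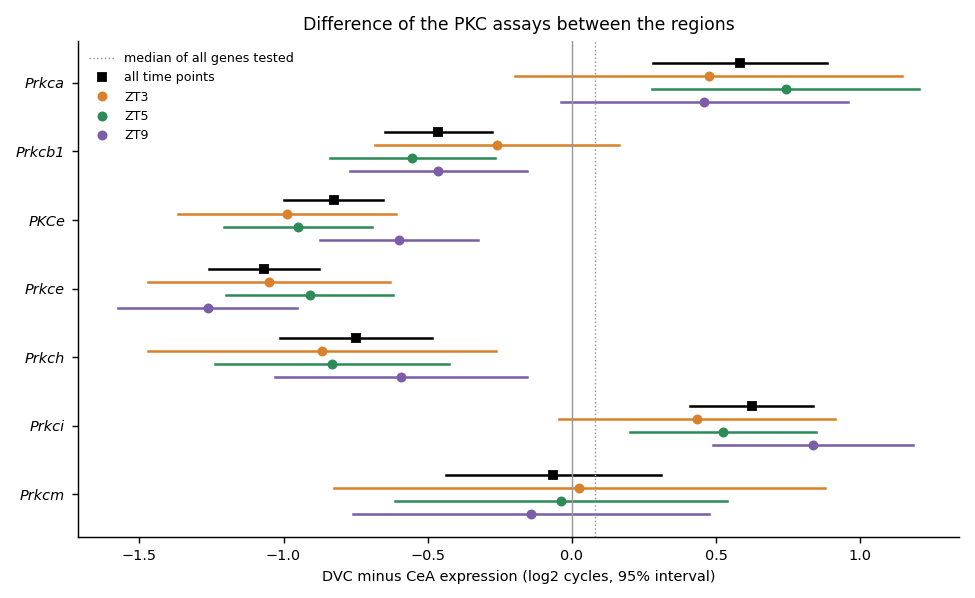
Region differences of the 7 assays, DVC minus CeA expression in log2 cycles, as limma estimates over all time points (black squares) and at ZT3, ZT5 and ZT9 (coloured points), with 95% intervals as bars. The dotted line is the median of all genes tested at 0.08. On this scale, normalized over both regions together, Prkce lies farthest from 0 at -1.07, Prkca and Prkci are the 2 assays to the right of 0, and the interval of Prkcm spans 0. The signs of Prkce, PKCe, Prkch, Prkcb1 and Prkcm turned with each region normalized alone, and with centring within each set of assays Prkch lies farthest at -1.39.

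These directions depend on a shared scale for the regions. Without normalization, the median region difference of all genes rose from 0.08 to 1.12, and with quantile normalization of each region on its own it was 1.13, because CT was lower in the DVC across the panel. On those scales more assays were called higher in the DVC: 3 against 0 called lower without normalization, and 5 against 0 with each region normalized alone, where the main scale gave 2 against 4. Over all genes the share of calls that were higher in the DVC went from 58.8% to 91.3% and 91.4%. Relative to the median of all genes on each scale, Prkca and Prkci were above it and the other 5 assays below it on all 5 scales tried. Sizes moved too with centring within each set of assays, a scale chosen after seeing the data. On it Prkce went from -1.07 to -0.52 and Prkci from 0.62 to 0.22 (adjusted p 0.0357), while Prkch went from -0.75 to -1.39, PKCe from -0.83 to -1.24 and Prkcm from -0.06 to -0.97 (adjusted p 1.2e-05).

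At single time points the limma fit of 6 group means called 3 of 7 assays at ZT3 (45.8% of all genes), 6 at ZT5 (59.2%) and 5 at ZT9 (58.5%). PKCe, Prkce and Prkch were called at each of the 3 time points, but in the higher-numbered animals alone the ZT9 call was lost for Prkch (-0.05, adjusted p 0.92) and PKCe (-0.44, adjusted p 0.106). Prkcb1 was called at ZT5 (-0.55) and ZT9 (-0.46). Both calls of Prkcb1 were lost in the higher-numbered animals alone (-0.33 with adjusted p 0.0505, and -0.05 with adjusted p 0.88). With each region normalized alone Prkcb1 was called higher in the DVC at ZT5 (0.71) and ZT9 (0.82). For PKCe the 3 differences, in order of time, were -0.99, -0.95 and -0.60, and for Prkce they were -1.05, -0.91 and -1.26. Prkci was called at ZT5 (0.52) and ZT9 (0.84) and not at ZT3 (0.43, adjusted p 0.14), where both regions held 7 samples. Both calls of Prkci were lost with centring within each set of assays (0.17 with adjusted p 0.32 at ZT5, and 0.31 with adjusted p 0.0822 at ZT9). Prkca was called at ZT5 (0.74) only, with an adjusted p of 0.26 at ZT3 and 0.11 at ZT9. The ZT5 call of Prkca was lost with median centring (0.46, adjusted p 0.0794). Its ZT9 difference (0.46) passed the threshold with the animal group as a factor (0.54, adjusted p 0.0372) and with centring within each set of assays (0.80, adjusted p 0.00373). It also passed the threshold without DVC ZT9 replicate 1 (0.60, adjusted p 0.0268), DVC ZT9 replicate 12 (0.55, adjusted p 0.0492) or CeA ZT9 replicate 12 (0.59, adjusted p 0.0374).

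**Figure D2:**
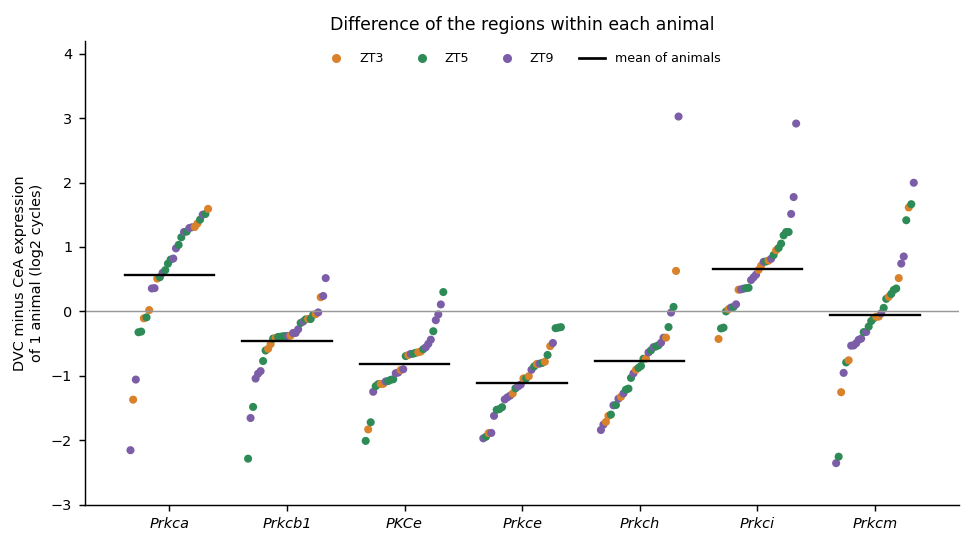
DVC minus CeA expression in log2 cycles within each animal that gave both values (30 animals for Prkca and Prkce, 32 for the others), with 1 point per animal coloured by time point and sorted by value, and a line at the mean. All animals lie below 0 for Prkce on the scale normalized over both regions together. The highest points of Prkch (3.02) and Prkci (2.92) belong to the animal of DVC ZT9 replicate 12.

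Over the 6 h from ZT3 to ZT9, 1 of the 7 assays was called for time. This was PKCe in the DVC, and the limma test of 3 time points called 10.3% of the 145 genes in that region. Normalized CT of PKCe in the DVC was 18.45 at the lowest, 18.68 at the median and 19.31 at the highest of the 7 ZT3 samples. At ZT5 these values were 18.33, 18.95 and 19.57 over 17 samples, and at ZT9 they were 18.29, 18.57 and 18.79 over 15 samples. Every ZT9 sample was above the ZT5 mean in expression (15 of 15), and 11 of 17 ZT5 samples were below the lowest ZT9 sample. The ZT9 samples were also close together, with an SD of 0.15 against 0.33 at ZT5 and 0.31 at ZT3.

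The difference of PKCe between ZT9 and ZT5 in the DVC was 0.42 ± 0.11 (SE), a 1.34-fold increase (95% interval 1.15 to 1.56), with an adjusted p of 0.00835 in limma. By p it ranked 5 among 145 genes in this contrast, in which 5.52% of all genes were called higher at ZT9. ZT3 lay between, at 0.15 ± 0.14 above ZT5 (adjusted p 0.68). The test over the 3 time points gave an adjusted p of 0.0154, and a permutation test over the samples gave 0.00051, or 0.00714 adjusted over 14 tests (7 assays in 2 regions). The astrocyte marker Clu was also higher in the DVC at ZT9 than at ZT5, by 0.78 ± 0.21 (SE, adjusted p 0.0101, limma). With centring within each set of assays the Clu difference was -0.01 (adjusted p 0.97), where that of PKCe was 0.34. The GABAergic marker Slc32a1 was called over the 3 time points in the DVC (adjusted p 0.0481), with a ZT9 difference of -0.56 (adjusted p 0.086), and Gad1 stood at 0.09 (adjusted p 0.79). This Slc32a1 difference rested on the scale. It was -0.12 with median centring (adjusted p 0.82) and -0.07 with centring within each set of assays (adjusted p 0.89). Without normalization it was 0.11 (adjusted p 0.82). Leaving out each DVC sample in turn kept the PKCe difference at ZT9 between 0.39 and 0.46 and its adjusted p at or below 0.0152.

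The ZT9 difference of PKCe had the same direction in both groups of animals. Within lower-numbered animals it was 0.45 (10 samples against 6, exact permutation p 0.0005, adjusted p 0.021 over 42 such comparisons). Within higher-numbered animals it was 0.39 (5 samples against 11, exact permutation p 0.0467, adjusted p 0.384). The call was lost with centring of each sample on its median (0.33, adjusted p 0.0754), without normalization (0.83, adjusted p 0.11, with a shift of the median gene of 0.49) and in the limma fit of the higher-numbered animals alone (0.39, adjusted p 0.53). It was kept with centring within each set of assays (0.34, adjusted p 0.00308), a scale chosen after seeing the data. The sets of assays stood 0.24 ± 0.52 (SD) cycles apart at ZT9 and 0.12 ± 0.53 at ZT5 in the DVC (median CT of the first set minus the second), a difference of 0.12 with a permutation p of 0.543.

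The other 6 assays were not called at any time point in the DVC. Their differences from ZT5 lay between -0.41 (Prkch at ZT3, 95% interval -0.99 to 0.16) and 0.14 (Prkca at ZT3, 95% interval -0.46 to 0.74). The assay labelled Prkce stood at -0.15 at ZT9, with a 95% interval of -0.45 to 0.15. Prkcb1 stood at 0.02 at ZT3 and 0.09 at ZT9.

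In the CeA, 0 of 7 assays were called for time by limma, where 3.52% of all genes were, and none passed an unadjusted p of 0.05 (0 of 7) by limma or by permutation, where 14.8% of all genes did by limma. The largest differences from ZT5 were those of Prkca at ZT3 (0.40, 95% interval -0.14 to 0.94) and Prkch at ZT3 (-0.38, 95% interval -0.81 to 0.05). For PKCe in the CeA the ZT9 difference was 0.07 (95% interval -0.26 to 0.41). The change in the DVC exceeded it by 0.35 (95% interval -0.03 to 0.72, adjusted p 0.34), so that the time course of PKCe was not shown to differ between the regions. No assay had an interaction of time point and region (0 of 7 called by limma, 0 of 7 at an unadjusted p of 0.05), beside 0% of all genes called and 10.6% at an unadjusted p of 0.05.

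Prkch in the CeA gave unlike values in the groups of animals. Within higher-numbered animals the change from ZT5 to ZT9 was -0.76 (5 samples against 9, exact permutation p 0.002, adjusted p 0.042 over 42 comparisons). Within lower-numbered animals it was 0.11 (7 samples against 5, exact permutation p 0.67). Pooled, it was -0.30 with an adjusted p of 0.56 in limma, and the difference between the animal groups was not tested.

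**Figure D3:**
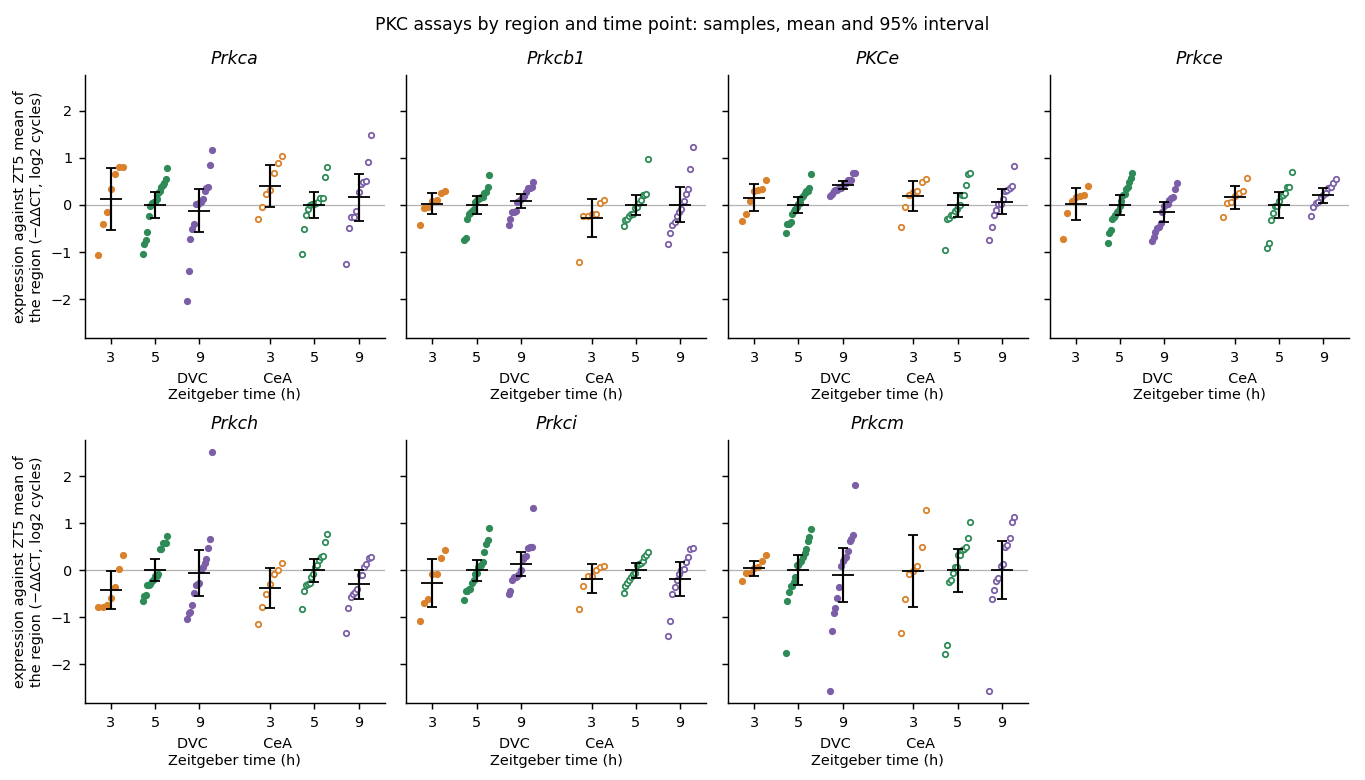
Expression of the 7 assays relative to the ZT5 mean of the same region (-ΔΔCT, log2 cycles) at ZT3, ZT5 and ZT9, with filled points for the DVC and open points for the CeA. Each point is 1 sample, sorted by value within its group, and bars give the mean and its 95% interval. In the DVC all PKCe samples at ZT9 lie between 0.18 and 0.69, and DVC ZT9 replicate 12 is the single high point of Prkch (2.52), Prkci (1.31) and Prkcm (1.81).

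The order of the 6 group means, on the scale normalized over both regions together, restates the region differences, since it comes from the same values. Neighbours were picked by this order, so their tests are no separate support. For PKCe and Prkce every CeA group had more template than every DVC group. The step from the last CeA group to the first DVC group was 0.88 cycles for Prkce (exact permutation, adjusted p 0.00926 over 35 neighbour comparisons) and 0.53 for PKCe (permutation, adjusted p 0.0035). Prkcb1 and Prkch had the same order of regions, but the step between them was 0.19 and 0.45 cycles and did not pass the adjustment. For Prkca and Prkci all DVC groups stood above all CeA groups, with steps of 0.22 and 0.26 cycles that did not pass either. The 6 means of Prkcm lay within 0.14 cycles, from 23.17 to 23.31, with the regions mixed. No other neighbours differed after adjustment, and the next smallest adjusted p was 0.105, for PKCe in the DVC between ZT9 and ZT3 (exact permutation).

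The spread between samples of one group also differed between the assays. In the DVC, PKCe had an SD within time points of 0.27, which ranked 143 of 144 genes from the largest, and Prkcb1 with 0.31 ranked 141, beside a median of 0.51 over the genes. Prkcm was among the most spread, with 0.77 in the DVC and 0.87 in the CeA (ranks 26 of 144 and 20 of 141). In the CeA the SD of PKCe was 0.41, beside a median of 0.52.

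One DVC sample, ZT9 replicate 12, had the lowest CT of the region for Prkch, Prkci and Prkcm, and shared the lowest of PKCe with DVC ZT9 replicate 4 (18.29 in both). It was also the sample with the largest difference between the sets of assays (1.64), and its values of Prkca and Prkce, from the other set, were below the ZT5 mean by 1.41 and 0.68 (-ΔΔCT of -1.41 and -0.68). Without it the region difference was -0.82 for Prkch and 0.59 for Prkci, and the ZT9 difference of Prkch in the DVC went from -0.05 to -0.24 (adjusted p 0.45). The part of the sets of assays in these values was not tested.

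On the normalized scale the epsilon-named assays did not move together. Across the 39 DVC samples their normalized CT values had a Pearson's r of -0.418 (permutation p 0.00856) and a Spearman's rho of -0.429 (permutation p 0.00713), with adjusted p values of 0.0478 and 0.0407 over 42 pairs. Without the 2 samples farthest from the median of PKCe, r was -0.374. Across 31 CeA samples r was 0.159 (permutation p 0.394), rho was 0.119 (permutation p 0.524) and r without 2 samples was 0.163. The sign in the DVC depended on the scale: r was 0.777 without normalization, when each sample's overall template enters both assays, and 0.0398 with centring within each set of assays. The assays lie in different sets. In the DVC their normalized CT values went opposite ways with the difference between the sets, at r of -0.617 for PKCe and 0.596 for Prkce. The part of this difference in the correlation of the 2 assays was not tested.

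**Figure D4:**
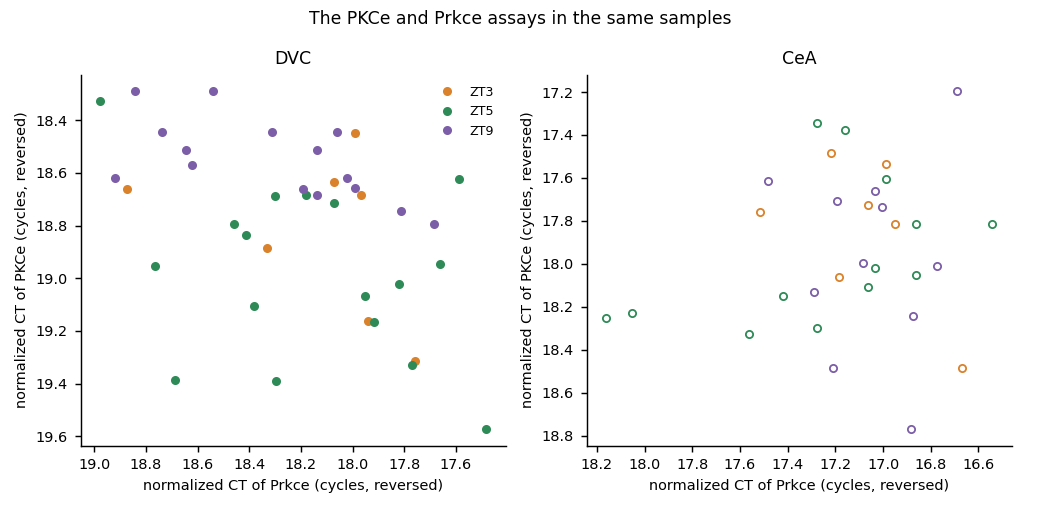
Normalized CT of PKCe against that of Prkce in the same samples, DVC at left (39 samples) and CeA at right (31 samples), coloured by time point, with both axes reversed so that more template is up and to the right. On this scale, DVC samples with more Prkce tend to have less PKCe (r of -0.418), and no such slope is seen in the CeA (r of 0.159). With centring within each set of assays, r in the DVC was 0.0398.

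Within a sample, the CT of PKCe minus that of Prkce was 0.69 ± 0.57 (SD, n = 7) at ZT3, 0.82 ± 0.62 (n = 17) at ZT5 and 0.24 ± 0.49 (n = 15) at ZT9 in the DVC, so that PKCe was relatively highest at ZT9. The 3 time points differed in the DVC (one-sided permutation test of F, p 0.0215, adjusted p 0.043 over 2 regions) and not in the CeA (p 0.553). With centring within each set of assays the DVC permutation p was 0.00062. Between the regions the within-sample difference was -0.21 over all time points (DVC minus CeA, permutation p 0.111). By time point it was -0.06 at ZT3, 0.11 at ZT5 and -0.67 at ZT9 (permutation p 0.00238, adjusted p 0.00952 over 4 comparisons). With centring within each set it turned to 0.76 over all time points and to 0.47 at ZT9, so that no direction can be given.

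Among the 21 pairs of assays in each region, 3 were positively and 2 negatively correlated in the DVC, while the CeA had 1 and 1, after adjustment of Pearson's r over 42 pairs. All 4 positive pairs lay within a set of assays and all 3 negative ones across sets. PKCe and Prkcb1 were the 1 pair called in both regions, with r of 0.531 in the DVC (rho 0.474, permutation p 0.00057 and 0.00268, adjusted p 0.00798 and 0.0332, r without 2 samples 0.455). In the CeA r was 0.580 (rho 0.502, permutation p 0.00047 and 0.00333, adjusted p 0.00798 and 0.0332, r without 2 samples 0.428). The median r was 0.308 for the 11 pairs within a set and -0.176 for the 10 pairs across sets in the DVC, while the CeA gave 0.301 and -0.0398. Without normalization all 42 were positive and past the threshold.

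The genes most like each assay, by the mean of r in the DVC and the CeA over the genes with at least 20 samples in each region, were from the same set. For PKCe they included Mpdz, a synaptic scaffold (mean r 0.585), and for Prkcb1 they included PKCe (0.555). Prkca and Prkce were both most like Gria3, an AMPA receptor subunit (0.642 and 0.537), followed by Rasa2 (0.516) for Prkca and by Grin1, the obligatory NMDA receptor subunit, for Prkce (0.516). Prkci was most like Gabrq (0.552) and Hyou1 (0.544), Prkch most like Dnmt2 (0.461) and Crhr1 (0.448), and Prkcm most like Kcnj9 (0.436) and Cckbr (0.302). All these values are of normalized CT. In the DVC, normalized CT correlated with the difference between the sets at r from -0.617 (PKCe) to 0.596 (Prkce). The part of the sets of assays in this likeness was not tested.

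Of 16 other panel genes of diacylglycerol, calcium and cAMP signalling, 10 differed between the regions (7 higher in the CeA, 3 in the DVC), beside 71.8% of all genes. This split depended on the scale: 4 were called higher in the CeA and 10 in the DVC with each region normalized alone, 3 and 9 without normalization, 8 and 0 with median centring, and 10 and 4 with centring within each set of assays. Ptk2b and Itpr1 were called higher in the CeA on all 5 scales. Ptk2b, the calcium-activated tyrosine kinase Pyk2, differed most, by -4.56 (SE 0.105), or 23.5-fold lower in the DVC (adjusted p 4.59e-51). Its mean normalized CT was 19.86 at ZT3 and 19.98 at ZT9 for the DVC, against 15.40 and 15.34 for the CeA. Itpr1, the IP3 receptor that releases calcium, was 4.30-fold lower in the DVC (-2.10 ± 0.12 SE, adjusted p 1.32e-25). Among genes higher in the DVC was Creb1, the transcription factor that PKA and CaM kinases phosphorylate (0.54 ± 0.18 SE, adjusted p 0.00503), but not with median centring (0.07, adjusted p 0.72). Among phospholipase C genes, Plcb1 was 2.73-fold and Plcb2 1.59-fold higher in the CeA, while Plcb3 (0.04) and Plcg2 (0.24) did not pass. With each region normalized alone Plcb1 was at -0.23 (adjusted p 0.0429) and Plcb2 at -0.12 (adjusted p 0.60). The Plcb2 difference was -0.99 at ZT3 (adjusted p 0.0666), -0.11 at ZT5 (adjusted p 0.78) and -1.20 at ZT9 (adjusted p 0.0029). The metabotropic glutamate receptor gene Grm5, which couples to Gq, was 1.77-fold higher in the CeA (-0.83), and its sign turned with each region normalized alone (0.21, adjusted p 0.114).

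None of the 16 passed the limma test over time points in either region (0 of 16, with 2 at an unadjusted p of 0.05 in each), and 2 were called higher in a pairwise contrast, that of ZT9 and ZT5 in the CeA, in which 2.11% of all genes were called higher. Crebbp, the coactivator of CREB, was higher in the CeA at ZT9 than at ZT5 by 0.67 ± 0.17 (SE, adjusted p 0.0253). All 12 of its ZT9 values were above the ZT5 mean (-ΔΔCT of 0.09 to 1.39, median 0.68). Creb1 was higher there by 0.92 ± 0.26 (SE, adjusted p 0.0356), with ZT9 values from -0.16 to 1.85 over 11 samples (median 1.11). The Creb1 call was lost in 10 of 33 fits that left out 1 CeA sample (differences of 0.82 to 1.02), and that of Crebbp in 0 of 33. Of the other settings, 6 of 10 lost the Creb1 call and 4 of 11 that of Crebbp. Both lost it without the 2 half-measured samples, with 0.92 (adjusted p 0.0577) and 0.53 (adjusted p 0.0776). In the DVC Creb1 was higher at ZT9 by 0.84 ± 0.28 (SE) with an adjusted p of 0.0529, and Crebbp by 0.02 ± 0.20 (SE). No phospholipase C or IP3 receptor gene passed a time contrast in either region. Plcb2 in the DVC stood at -0.93 ± 0.32 (SE) at ZT9 against ZT5, with an adjusted p of 0.0594 in limma. At ZT3 against ZT5 it stood at -0.92 ± 0.38 (SE, adjusted p 0.186), and the test over the 3 time points gave an adjusted p of 0.0804.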

How the data were processed

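Expression had been measured by the authors with microfluidic quantitative RT-PCR on a BioMark system, and the deposited table holds normalized CT values, which are cycle numbers on a log2 scale, after quantile normalization by the authors. Quantile normalization of the deposited non-normalized values over all 72 samples gave the same values within 4.99e-09 cycles, and of each region alone within 0.972 cycles. Failed reactions were kept as missing. A further deposited table holds the authors' own means per time point and differences from ZT5 and was not used. The gene identifiers and primers came from the deposited platform table and the study's primer list, and current gene names came from the RefSeq gene table of GRCr8, which was used for names only. The genome build is not given in the sources used here.

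Expression was taken as minus CT, and -ΔΔCT as the ZT5 mean CT of the region minus the CT of a sample. The limma package fitted time point in each region (145 genes in the DVC), region with time point as a covariate, and 6 group means for the interaction and for the region difference at each time point, always over all genes with at least 2 values in every group, with Benjamini-Hochberg adjustment at 0.05. P-values of single assays, correlations and neighbouring group means came from two-sided permutation tests of 100000 draws, exact where a group had under 10 samples, and from one-sided tests of F over 3 time points. Number of samples is the limit of precision, since CT values carry no counts. The procedure was tested on simulated data with known changes. Some genes that these rules pick, 1 of the 8 assays among them, are not reported here. Members and lists were chosen with earlier results of these data known. Named genes were the assays described, the 2 genes most like each by mean r, the label markers, and of the pathway list the genes called over time and the 2 with the largest region difference in each direction, and the phospholipase C genes and Grm5 were added after their values were seen.

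Pairing by animal comes from the animal numbers in the labels. Deviations of the DVC and CeA samples of an animal correlated with a median r of 0.143 over 32 animals, with 20 over 0.1, and replicate numbers were not tied to animals across time points. Alternatives were no normalization, quantile normalization of each region, centring on the sample median, only well-measured samples (70), genes with a value in every sample, higher-numbered animals, the animal group as a factor, an unmoderated linear model, a replicate block, leaving out each sample, and, chosen after seeing the data, centring within each set of assays. The sets of assays were found from reactions that failed together, and what set them apart was not tested. No 2 samples held identical values (0 found). Software was Python 3.11.15, numpy 2.4.6, scipy 1.17.1, pandas 2.3.3, matplotlib 3.10.9, R 4.3.3, limma 3.58.1 and statmod 1.5.0.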

Additional observations from a re-analysis of the deposited data

Results flagged for a closer look

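Prkcb1 in CeA ZT3 replicate 7 had a normalized CT of 17.65, while the other 6 samples of its group lay between 16.34 and 16.68, so that the gap to the nearest sample took 0.74 of the whole range. It was the 1 sample set apart in this way among 14 groups of 4 to 10 samples checked, and chance sets apart about 1 group in 20. Only the ZT3 groups, of 7 samples each, were of that size, so samples of ZT5 and ZT9 were not checked in this way.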

How the results depend on the processing

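The call of PKCe over time in the DVC, 1 of 7 assays and 1 of 42 pairwise contrasts, fell to 0 and 0 with median centring, with no normalization and in the higher-numbered animals alone. The cause was not tested. Without normalization 3 assays were called for region (6 in the main setting), 6 of 21 region differences at single time points (14), and 42 of 42 correlations between assays (7, and 4 with centring within each set of assays). With each region normalized alone the region difference changed sign for Prkce (0.0698), Prkcm (0.60), Prkch (0.10), Prkcb1 (0.81) and PKCe (0.24), and without normalization for Prkch (0.0929), Prkcb1 (0.82), PKCe (0.25) and Prkcm (0.51). Both scales shift the median of all genes by over 1 cycle.

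Of the pathway list, the DVC time test called 0 genes in the main setting, 1 with median centring, 2 without normalization and 1 with centring within each set of assays. In the CeA it called 0 in the main setting, and 1 each with centring within each set, with genes measured in every sample and with the replicate block. Among genes measured in every sample, 1 of 3 of the list was called for region (10 of 16 in the main setting). The region difference of PKCe minus Prkce turned from -0.21 to 0.76 with centring within each set, a scale chosen after seeing the data. Their correlation in the DVC turned from -0.42 to 0.777 without normalization and 0.0398 with centring within each set, and in the CeA it went from 0.159 to 0.896 without normalization.

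Leaving out each sample in turn gave 1 to 1 assays called over time in the DVC, 0 to 0 in the CeA, 6 to 6 for region and 0 to 0 for the interaction. The PKCe minus Prkce difference then lay between -0.25 and -0.18, and the correlation between -0.51 and -0.34 in the DVC and between 0.08 and 0.24 in the CeA. With the animal as a replicate block (consensus correlation 0.0585), 6 assays were called for region and 0 for the interaction, as without it. Blocking on the replicate number (consensus correlation -0.0196 in the DVC and 0.0771 in the CeA) left 1 and 0 assays called over time. Same-numbered samples of different time points had a median r of 0.0166 in the DVC and 0.0345 in the CeA, so these share only a number.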
